A study of Arabidopsis thaliana with 27 samples.

Results

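Gene expression in rosette leaf and in root of wild type (WT) Arabidopsis thaliana was compared across all genes of 6 of the 27 RNA-seq libraries of the study. The 6 libraries are every WT library whose label gives rosette leaf (3 plants) or root (3 plants), normalized together. The study followed epi-lines, that is progeny of crosses between WT and an msh1 mutant that no longer carry the msh1 mutation, beside WT in leaf, root and floral stem. Both groups used here were untreated Col-0 plants with no mutation or transgene. The leaf libraries came from rosette leaves of plants grown on peat mix in growth chambers, and the root libraries from plants 10 days old grown on MS medium. The labels place the leaf plants at bolting, whereas the methods for RNA describe leaf tissue of plants 4 weeks old. Organ, plant age and growth medium therefore changed together and cannot be told apart in any result, and the hour of harvest was not given in the sources used here. Sequencing depth and the share of reads assigned to no gene, given below, also changed with organ and cannot be told apart from it. The replicates were separate plants, 1 library each, and no leaf and root library came from a plant stated to be the same.

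A rosette leaf is the photosynthetic organ of the plant: mesophyll cells packed with chloroplasts fix carbon with Rubisco, the epidermis carries stomata and a waxy cuticle, and veins bring nitrate and minerals in. A root takes up nitrate, phosphate, sulfate, potassium and iron through root hairs and transporters of its outer cells, seals its endodermis with the Casparian strip and suberin, and grows from a meristem under the root cap. In bulk tissue the RNA of all cell types is pooled, so fewer cells of a type and less RNA per cell cannot be told apart.

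The leaf libraries held 74280022 to 90808615 reads counted on genes and the root libraries 18596963 to 19563494, so leaf was the more deeply sequenced organ. Of 25272 genes with a read in the 6 libraries, 21488 passed the low count filter and were tested with edgeR's quasi-likelihood test. Levels are given in CPM, the count of a gene scaled to library size after TMM normalization, which compares samples for 1 gene and not different genes. A difference is given as log2FC, the log2 of leaf over root, so that a positive value is higher in leaf. A gene was called when its false discovery rate (FDR, Benjamini-Hochberg) was under 0.05 and its log2FC was at least 0.5 in size. The ± after a log2FC is its standard error from the model with 3 plants in each organ. Reads assigned to no gene made up 0.717 to 0.860% of the leaf libraries and 4.42 to 5.02% of the root libraries. The correlation of log2 CPM was 0.988 to 0.994 between leaf plants, 0.960 to 0.964 between root plants and 0.495 to 0.519 between organs, over genes, which are not independent replicates. A floor of 3 reads in a library was worth 0.0404 to 0.0480 CPM in leaf and 0.127 to 0.135 CPM in root.

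The labelled organs were checked against 38 markers. Of 12 markers of rosette leaf, 11 were higher in leaf and the last, *CAT2*, was not called. Their summed level was 21469 to 26525 CPM in the leaf plants and 346 to 445 CPM in the root plants, and *YAB3* and *FIL*, which specify the lower face of the leaf, had no read in root. All 13 root markers were higher in root, with 15.9 to 19.3 CPM in leaf and 718 to 1085 CPM in root in sum, and 5 of them had no read in leaf. The 7 markers of flower or stem summed to 1.46 to 1.93 CPM in leaf and 19.23 to 20.13 CPM in root, most of the latter from *KNAT1*, a homeobox gene of the shoot meristem that was at 13.1 to 18.9 CPM in root. Of these 7, *KNAT1*, *AP3* and *PI* were called higher in root, *AG* was called higher in leaf and 3 were not tested. *PI* was at 0.404, 2.12 and 5.41 CPM in the root plants, and *AG* had no read in root. The 2 pollen markers stayed at or under 0.425 CPM and the 4 seed markers at or under 0.179 CPM in every plant.

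Of the 21488 genes tested, 15252 (71%) were called: 7371 (34.3%) higher in leaf and 7881 (36.7%) higher in root. At a difference of at least 8-fold, 2108 genes (9.81%) were higher in leaf and 3012 (14%) higher in root, and 1422 and 2340 genes passed 16-fold. The 3 plants of one organ lay wholly above those of the other for 17355 genes (80.8%), so groups that do not overlap were the rule and not the exception. No read in any root plant was counted for 409 of the genes called higher in leaf, and no read in any leaf plant for 781 of those called higher in root. The median log2FC over all tested genes was -0.03. Scaling by total counts shifted that median by -0.53, and the split became 5041 genes higher in leaf and 10644 higher in root, while upper quartile scaling shifted it by -0.36, with 5653 and 9739 genes. Among genes named below, total counts scaling ended the calls toward leaf of *ACR4*, *BHLH38*, *FER3*, *FRO3*, *GLDP2*, *GLN1.4*, *LOTR1*, *MCM2*, *MCM6*, *NAP*, *NIA2*, *NPF1.1*, *PP2AA3*, *RVE6*, *SMR1*, *SOS1*, *SPX2*, *SULTR2;1*, *SULTR2;2*, *TIM*, *TOE1*, *TSO2*, *UBQ10* and *UPL7*, and gave calls toward root to *AMT1;1*, *CAT2*, *EDS5*, *EF1A*, *GAPC2*, *GORK*, *LHW*, *MCM5*, *NIA1*, *RGFR1*, *TPST* and *UBC9*. Within an organ the plants were alike, with a median coefficient of variation of 8.70% in leaf and 11.5% in root over genes at 10 CPM or more.

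**Figure D1:**
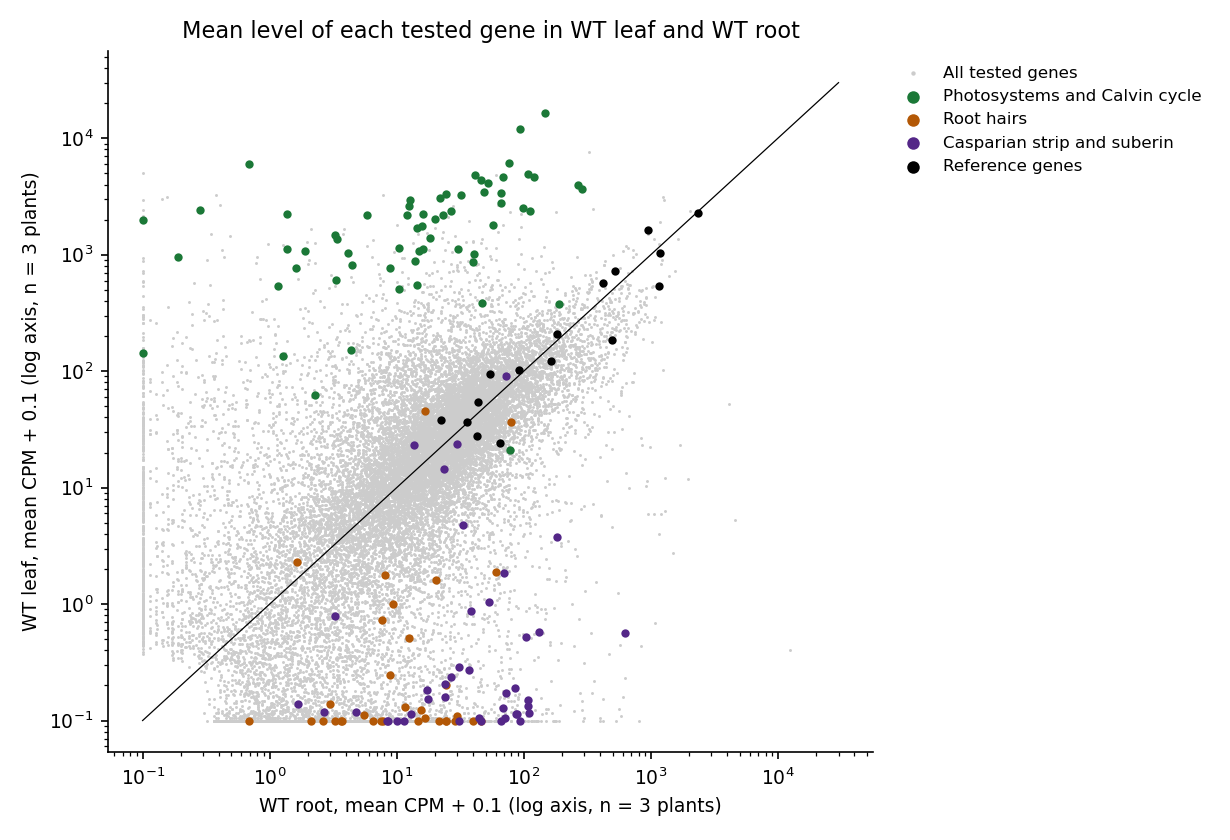
Mean level in WT root (x axis, CPM + 0.1, log scale, n = 3 plants) against mean level in WT leaf (y axis, CPM + 0.1, log scale, n = 3 plants) for each tested gene, with the members of selected gene lists in colour. The 7371 genes higher in leaf lie above the diagonal and the 7881 genes higher in root below it, with photosynthesis genes at the upper left and root hair and Casparian strip genes at the lower right.

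The length of a gene moved with its difference between the organs. When the tested genes were split by exon length into 5 classes of about equal size, the median log2FC was -0.89 in the shortest class (29 to 1108 bases), then -0.36, -0.08 and 0.16, and 0.63 in the longest class (2546 to 16614 bases). Of the shortest genes 21.3% were higher in leaf and 54.5% higher in root, and of the longest 53.5% and 18.8%. Epi 8, a line of the same study whose leaf and root libraries share no plant with WT, gave -1.06, -0.42, -0.12, 0.14 and 0.61 in the same classes. Leaf against WT floral stem, which shares the leaf libraries, gave -0.44 to 0.48 from shortest to longest, and stem against root, which shares the root libraries, gave -0.27 to 0.07. When the trend with length was removed within the model, an alternative chosen after seeing the data, 7076 genes were higher in leaf and 7307 higher in root, and 12868 of the calls were shared with the 15252 above. Among genes named below, removing it ended the calls of *ACR4*, *FRO3*, *GLDP2*, *KRP5*, *MCM2*, *MCM6*, *NIA2*, *PCNA1*, *SOS1*, *TIP41L*, *TOE1* and *UPL7* and gave calls to *GLT1*, *GORK*, *LHW*, *MYB23*, *NIA1*, *PHO2*, *RGFR1*, *UBC21* and *YLS8*. The part of the trend in each result was not tested.

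**Figure D2:**
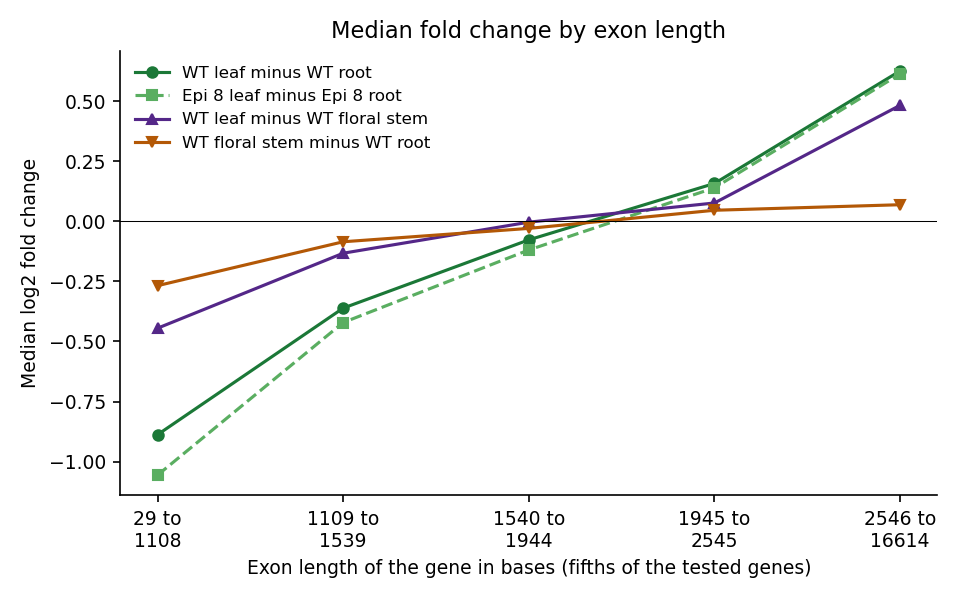
Median log2FC (y axis) of genes in 5 classes of exon length from shortest to longest (x axis), for WT leaf against root, Epi 8 leaf against root, WT leaf against stem and WT stem against root. WT leaf against root rises from -0.89 to 0.63 and Epi 8 from -1.06 to 0.61, while WT stem against root spans -0.27 to 0.07.

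Leaf libraries were led by genes of photosynthesis. The 10 genes with the highest level in leaf were taken among genes called at 8-fold or more without overlap of plants. They were the light harvesting gene *CAB1* (*LHCB1.3*), the Rubisco small subunit genes *RBCS1A* and *RBCS3B*, the catalase gene *CAT3*, *LHCB5*, *LOX2*, *PSBO1*, the thiamine synthesis gene *THI1*, *RCA* and *PSBP-1*. *CAB1* was at 19428, 17519 and 12604 CPM in leaf and 136, 159.5 and 143 CPM in root. *RBCS1A*, whose product is part of the enzyme that fixes carbon dioxide, was at 14257, 10034 and 11572 CPM in leaf and 63.3, 97.9 and 121 CPM in root. No leaf plant came near a root plant for either gene, and the log2FC was 6.82 ± 0.25, FDR = 7.64e-09 for *CAB1* and 6.99 ± 0.32, FDR = 2.53e-08 for *RBCS1A*. *RBCS3B* was at 6732, 6004 and 5217 CPM in leaf and 0.448, 0.297 and 1.03 CPM in root, and its root mean was 0.00988% of its leaf mean, against 0.787% for *RBCS1A*, 0.886% for *CAB1* and 0.861% for *RCA*. The shares left in root thus differed widely between genes of 1 family. The *RBCS* and *LHCB1* genes are near-identical copies within each family, and reads that mapped to several places were not counted, so levels of single copies are uncertain. The strand setting of the counting was not stated either, so the same holds for genes that share bases with a neighbour. Among them are *CAB1*, *RCA*, *LHCA4*, *PSBP-1*, *CAT2*, *GLDP1*, *GLU1*, *PYK10*, *EXT3*, *EXPA7*, *CASP1*, *ESB1*, *TCP3*, *AMT1;1*, *ELF3* and *FKF1*. Some of these overlaps are short, such as 3 bases for *RCA* and 14 for *GLDP1*. Others, among genes named below, span 1959 bases for *SPL5*, 1793 for *SPL15*, 1046 for *SPL3* and 544 for *SMZ*.

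Genes at 0 in 1 organ were led in leaf by *LOX2*, a chloroplast lipoxygenase of jasmonate synthesis. It was at 3987, 3904 and 7301 CPM in leaf with no read in root. Leaf P3 was above the other leaf plants. *LOX2* was at least 115122-fold higher in leaf when root is set to a floor of 3 counts over the group. *ECS1*, *ACD6*, the myrosinase gene *TGG2* and *RBCS1B* followed with lower bounds of 66371, 54774, 48701 and 44766-fold. Each of these 5 genes had no read in any root plant.

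Root libraries were led by *PYK10*, a beta-glucosidase stored in endoplasmic reticulum bodies, at 0.296, 0.0479 and 0.560 CPM in leaf and 11577, 10506 and 15094 CPM in root. The leaf mean of *PYK10* was 0.00243% of its root mean (log2FC -15.32 ± 0.62, FDR = 1.33e-08, and -16.02 without leaf P3). *GRP9*, a glycine-rich protein gene, was at 3.38, 4.95 and 7.10 CPM in leaf and 3831, 4559.8 and 5360.2 CPM in root. *EXT3*, an extensin of the cell wall, was at 33.2, 25.1 and 96.9 CPM in leaf and 4957, 3586 and 3871 CPM in root, with leaf P3 above the other leaf plants for *GRP9* and *EXT3*. The log2FC of *EXT3* was -6.32 ± 0.53, FDR = 2.29e-06, and -7.13 without leaf P3. *DOX1*, an alpha-dioxygenase that oxidises fatty acids, was at 0.242, 0.144 and 18.4 CPM in leaf and 1636, 1159 and 1101 CPM in root. Leaf P3 carried nearly all of its leaf reads, and its log2FC of -7.70 became -12.64 without that plant. The 10 genes with the highest level in root were likewise taken among genes called at 8-fold or more without overlap of plants. The others of these 10 were *AT4G11320* (a papain family protease), *AT2G43150* (a proline-rich extensin-like protein), *DR4* (-10.28 without leaf P3), the lectin gene *PBP1*, whose product binds PYK10, *DOT1* and the peroxidase gene *AT3G32980*. Their log2FC lay between -6.18 and -9.16 except for *DOT1*, at -3.62. Of genes with no read in leaf, *MLP34*, at 511, 844 and 1070.3 CPM in root, and the peroxidase gene *AT4G30170*, at 579, 509.8 and 493 CPM, were at least 53728 and 35036-fold higher in root, and *MLP328*, *BGLU21* and *AT4G15390* followed.

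The named gene groups are described by how many of their tested members were called in each direction and by their median log2FC, to be read against 34.3% and 36.7% and the median of -0.03 over all tested genes.

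**Figure D3:**
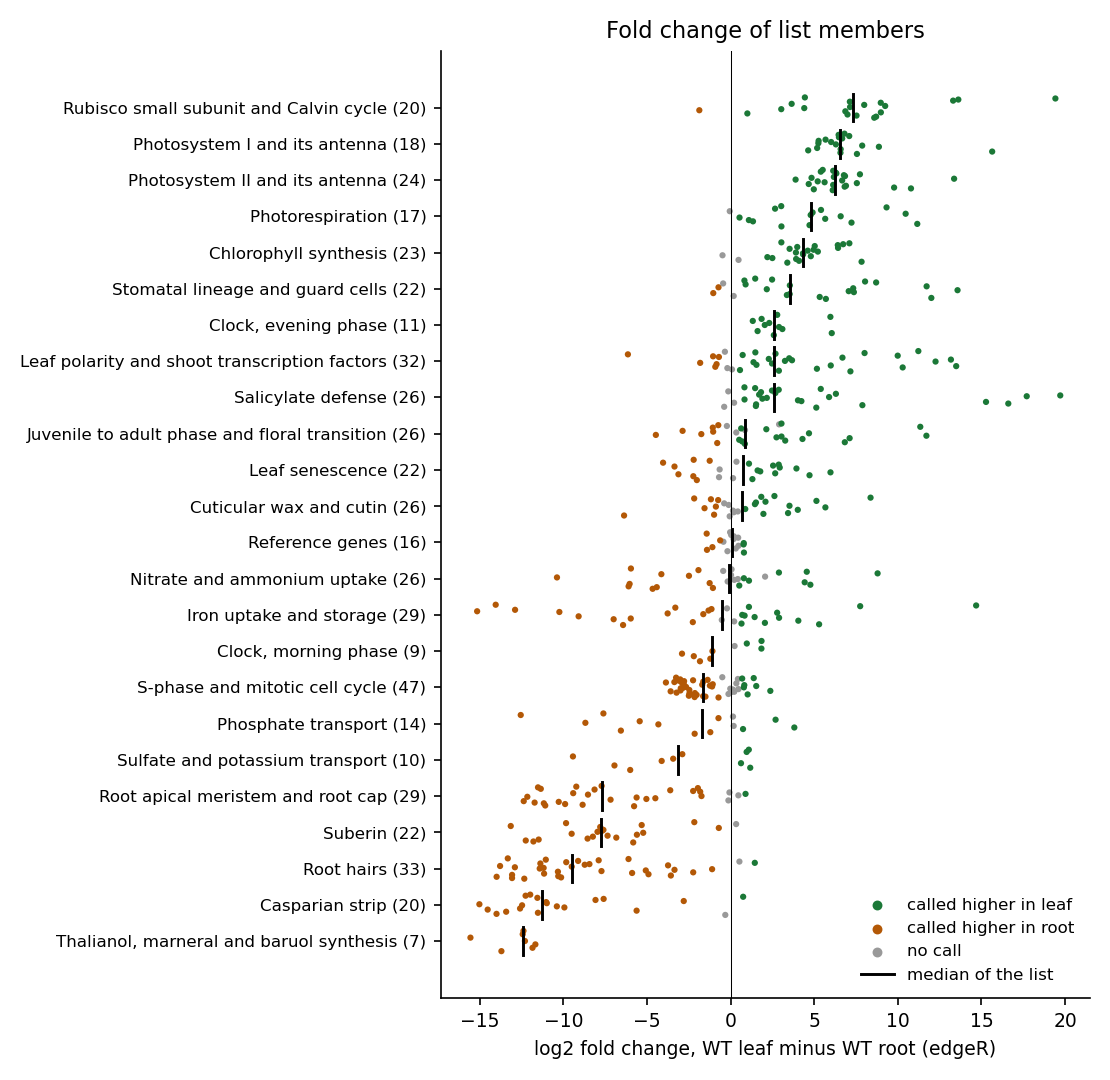
log2FC of leaf over root (x axis) for each tested member of the gene lists (y axis), 1 point a gene, with the median of each list marked. The photosynthesis lists lie at medians from 4.32 to 7.34, and the lists of root hairs, Casparian strip, suberin, root meristem and thalianol synthesis at medians from -12.39 to -7.72, where values of genes with no read in 1 organ depend on the prior count that the model adds to counts of 0.

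Genes of photosynthesis were higher in leaf almost without exception. Of 20 genes of the Rubisco small subunit and the Calvin cycle, 19 were higher in leaf, with a median log2FC of 7.34, and they took 3.96 to 4.36% of the reads of the leaf plants and 0.102 to 0.126% of those of the root plants. *RCA*, the Rubisco activase, was at 5086, 4874 and 4419 CPM in leaf and 27.04, 44.4 and 52.4 CPM in root (log2FC 6.86 ± 0.29, FDR = 1.64e-08). *TKL1*, the chloroplast transketolase, was at 3896, 3389.6 and 3612 CPM in leaf and 293, 287 and 289 CPM in root, while its paralog *TKL2* was the 1 member higher in root, at 23.3, 19.9 and 20.01 CPM in leaf and 81.7, 76.4 and 73.9 CPM in root (log2FC -1.87 ± 0.12, FDR = 2.41e-07). *TIM*, a triose phosphate isomerase of the plastid, differed least among the members higher in leaf, with a log2FC of 1.00. All 18 genes of photosystem I and its antenna were higher in leaf (median 6.52, 2.78 to 3.46% of leaf reads and 0.0479 to 0.0695% of root reads), and so were all 24 genes of photosystem II and its antenna (median 6.23, 4.52 to 5.92% and 0.108 to 0.144%). *LHCA4*, a light harvesting protein of photosystem I, was at 5076, 4757 and 3979 CPM in leaf and 89.1, 147 and 124 CPM in root, and *LHCA6*, a minor member of the same family, had no read in root and was at least 3257-fold higher in leaf. The antenna genes *LHCA1* and *LHCA3* and the photosystem I subunit gene *PSAF* had log2FC of 5.68, 6.296 and 6.58. *PSBO1*, a subunit of the oxygen-evolving complex, was at 5183, 5525 and 4053 CPM in leaf and 87.7, 121 and 116 CPM in root, and *PSBP-1* of the same complex and the antenna gene *LHCB5* had log2FC of 6.10 and 6.32.

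The Rubisco small subunit promoters are a textbook case of light-responsive sequence, with a G-box (CACGTG) bound by bZIP and bHLH factors and I-boxes (GATAAG). Within the 250 bases before the annotated start, read on both strands, an I-box occurred in 12.3% and a G-box in 6.49% of 27437 promoters of protein-coding genes. An I-box was found in 17.4% of the genes at least 8-fold higher in leaf and in 11.8% of those at least 8-fold higher in root, and in 4 of the 20 genes of Rubisco and the Calvin cycle. It was in 5 of 18 genes of photosystem I, 4 of 24 of photosystem II, 1 of 17 of photorespiration and 2 of 23 of chlorophyll synthesis. It was also in 5 of 20 genes of the Casparian strip, a root list. A G-box was found in 8.02% and 6.32% of the same 8-fold sets. The promoters of *RBCS2B* and *RCA*, shown because these letters occur in them and taken from the RefSeq genome TAIR10.1, are given 5′ to 3′ on the strand of the gene up to the base before the start, with matches in capitals. In *RBCS2B* (chr5:15382072-15382321, minus strand) the I-boxes begin 146, 115 and 94 bases and the G-box 123 bases before the start, the I-box at 115 lying on the opposite strand, and in *RCA* (chr2:16573693-16573942, minus strand) 1 I-box begins 133 bases before it.
RBCS2B: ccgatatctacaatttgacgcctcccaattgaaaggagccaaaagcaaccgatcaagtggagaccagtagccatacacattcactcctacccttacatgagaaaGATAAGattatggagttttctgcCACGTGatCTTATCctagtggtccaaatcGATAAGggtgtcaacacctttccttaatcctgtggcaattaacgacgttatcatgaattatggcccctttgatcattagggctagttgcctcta
RCA: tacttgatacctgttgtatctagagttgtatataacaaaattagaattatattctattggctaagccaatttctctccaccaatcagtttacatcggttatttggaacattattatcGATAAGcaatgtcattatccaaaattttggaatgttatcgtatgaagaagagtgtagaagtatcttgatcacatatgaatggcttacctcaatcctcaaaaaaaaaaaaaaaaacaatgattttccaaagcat
A match is a description of letters and not of a bound site. *RBCS1A*, *RBCS3B* and *CAB1* held neither motif in this window. *RBCS2B* itself was at 2414, 2459.7 and 2396 CPM in leaf and 0, 0.552 and 0 CPM in root, so its leaf plants stood far above its root plants (log2FC 13.62 ± 0.60, FDR = 2.18e-08). All of its root reads came from P2, without which root is at 0.

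Photorespiration, which recycles the product of Rubisco's reaction with oxygen, followed, with 16 of 17 genes higher in leaf and a median of 4.79. *SHM1*, the mitochondrial serine hydroxymethyltransferase, was at 2702, 2565 and 2695 CPM in leaf and 54.8, 65.9 and 67.3 CPM in root (log2FC 5.40 ± 0.17, FDR = 4.22e-09). *GLDP1*, a glycine decarboxylase subunit, was at 2445, 2148 and 2342 CPM in leaf and 69.9, 72.3 and 89.8 CPM in root. The peroxisomal aminotransferase genes *GGT1* and *AGT* had log2FC of 4.72 and 5.66. The exception was *CAT2*, the catalase that removes peroxisomal hydrogen peroxide in leaves, at 147, 123 and 200.001 CPM in leaf and 163, 178 and 146 CPM in root, where the plants of the organs overlapped (log2FC -0.05 ± 0.18, FDR = 0.795). *CAT3*, a sister catalase whose mRNA is known to peak in the evening while that of *CAT2* peaks in the morning, was at 7785, 7021 and 7917 CPM in leaf and 258, 362 and 349 CPM in root (log2FC 4.55 ± 0.20, FDR = 2.08e-08). The call of *GLDP2*, at a log2FC of 0.53, was lost when a plant was left out, and it was -0.20 with the length trend removed. Of 23 genes of chlorophyll synthesis, 21 were higher in leaf (median 4.32). *PORB*, a light-dependent protochlorophyllide reductase, was at 1982, 1518 and 1606 CPM in leaf and 19.3, 18.0 and 22.1 CPM in root. *CHLH*, the large subunit of magnesium chelatase, was at 1571, 1154 and 1190.5 CPM in leaf and 30.8, 40.9 and 48.3 CPM in root. *CRD1* and *CHLP*, which form the isocyclic ring and the phytol tail, had log2FC of 5.22 and 4.80. *HEMA2* (0.47) and *HEMA3* (-0.49, and 0.37 without root P2), 2 of the 3 glutamyl-tRNA reductase genes at the head of the pathway, were not called, whereas *HEMA1* was higher in leaf with a log2FC of 2.495.

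Stomatal genes were mostly higher in leaf: 18 of the 22 tested, with 2 higher in root. Their median was 3.54, or 3.38 with genes at 0 in root set to their bound. The counts became 15 and 3 with total counts scaling, and 18 and 3 with the length trend removed. *KAT1*, a potassium channel of guard cells, was at 47.6, 35.4 and 48.4 CPM in leaf and 0, 0.297 and 0 CPM in root. *FAMA*, the factor that completes guard cell fate, was at 33.6, 38.1 and 30.5 CPM in leaf with no read in root, at least 775-fold higher in leaf. *SCRM2*, a partner of the lineage factors, had a log2FC of 5.33. The early lineage was low in these rosettes, with *SPCH*, which starts the lineage, at 0.687, 0.814 and 0.704 CPM and *MUTE*, which ends its divisions, at 0.364, 0.335 and 0.416 CPM in leaf, both with no read in root. *MYB88*, which limits guard cell divisions and also acts in roots, was higher in root, at 13.3, 10.6 and 11.9 CPM in leaf and 22.0, 25.3 and 26.3 CPM in root (log2FC -1.04 ± 0.15, FDR = 0.000102). *ALMT12*, an anion channel of guard cells, was also higher in root (log2FC -0.73 ± 0.27, FDR = 0.03), a call that was lost when a plant was left out. *GORK*, a potassium channel of guard cells and root hairs, was at 15.3, 15.1 and 10.95 CPM in leaf and 22.8, 15.4 and 18.2 CPM in root and was not called.

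The cuticle list was divided. Of 26 tested genes of wax and cutin synthesis, 13 were higher in leaf and 7 higher in root, with a median of 0.65 (15 and 7, median 1.00, with the length trend removed, and 12 and 10 with total counts scaling). *CER6*, the condensing enzyme of very long chain wax precursors, was at 255, 266 and 256 CPM in leaf and 2.65, 8.16 and 4.43 CPM in root (log2FC 5.67 ± 0.34, FDR = 1.72e-07). *CER5*, a wax exporter, was at 151, 143 and 135 CPM in leaf and 6.99, 12.2 and 7.34 CPM in root. The elongase subunits *KCR1* and *PAS2*, which also serve other lipids, were higher in root, with log2FC of -1.56 and -1.18, and so were the acyltransferase genes *GPAT4* (-0.99) and *DCR* (-2.18), the hydroxylase gene *CYP86A8* (-0.88) and *CER4* (-0.75), a fatty acyl reductase gene with overlapping plants whose call was lost when a plant was left out. *CYP86A4*, a fatty acid hydroxylase of cutin, was at 0.229, 0.128 and 0.0320 CPM in leaf and 10.4, 11.9 and 11.5 CPM in root and had the largest difference toward root in the list (log2FC -6.37 ± 0.46, FDR = 7.40e-07, and -7.07 without leaf P1).

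Leaf polarity and shoot transcription factors were higher in leaf in 23 of 32 tested cases (median 2.58). *GLK1*, which drives expression of photosynthesis genes, was at 283, 345 and 263 CPM in leaf and 0.359, 0.212 and 0.134 CPM in root (log2FC 10.29 ± 0.26, FDR = 2.39e-09). *YAB5* and *FIL*, YABBY genes of the lower leaf face, had no read in root and were at least 733 and 311-fold higher in leaf. *BLH1*, a homeobox gene, had a log2FC of 2.48. The TCP genes that restrain leaf growth moved together: *TCP3* was at 181, 169 and 162 CPM in leaf and 6.59, 3.10 and 4.65 CPM in root and *TCP4* at 108, 89.6 and 94.9 CPM in leaf and 10.7, 6.03 and 6.31 CPM in root, and over the whole TCP family 12 of 14 tested genes were higher in leaf and 1 higher in root (median 3.19, or 3.17 with bounds). Members of the growth regulating module stood opposite. *GIF1*, a coactivator of the growth regulating factors, was at 0.700, 0.383 and 0.624 CPM in leaf and 41.0, 42.9 and 38.3 CPM in root (log2FC -6.14 ± 0.22, FDR = 6.73e-09). *GRF1*, *GRF2* and *GRF3*, its partners, were also higher in root with log2FC of -0.92, -0.70 and -1.82, and so were *ANT* (-1.05) and *PHB* (-0.84). The call of *GRF2* was lost when a plant was left out.

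Of 26 tested genes of the vegetative phase change and the floral transition, 15 were higher in leaf and 7 higher in root (median 0.85). These became 12 and 7 with the length trend removed and 11 and 8 with total counts scaling. *SVP*, a repressor of flowering, was at 138, 140.2 and 111 CPM in leaf and 8.07, 15.3 and 17.1 CPM in root. *SOC1*, an activator, was at 91.2, 98.0 and 122 CPM in leaf and 7.62, 22.3 and 7.74 CPM in root (log2FC 3.26 ± 0.25, FDR = 1.12e-06 for *SVP* and 3.04 ± 0.38, FDR = 3.94e-05 for *SOC1*, 3.76 without root P2). Of the SPL factors of the adult phase, *SPL3*, *SPL4* and *SPL9* were higher in leaf with log2FC of 4.296 (6.27 without root P2), 6.83 (7.47 without root P1) and 2.74 and *SPL5* was at least 213-fold higher in leaf, but *SPL10* and *SPL15* were higher in root (-0.80 and -1.75). The AP2-type repressors of flowering were split: *SNZ* was at 36.4, 37.7 and 42.9 CPM in leaf and 0.179, 0.382 and 0.268 CPM in root. *SMZ* was at 0.337, 0.367 and 0.752 CPM in leaf and 8.03, 12.8 and 11.5 CPM in root, so this pair of close relatives was reversed between the organs with no overlap of plants. Counts of *SPL3*, *SPL5*, *SPL15* and *SMZ* may be mixed with those of the genes they overlap. *AP2*, *TOE2* and the repressor *TFL1* were higher in root (-1.04, -1.07 and -2.87, the last -2.22 without root P3), as was the FLC relative *MAF2* (-0.74). *TOE1* was called higher in leaf (0.51), a call that was lost when a plant was left out and with total counts scaling, where the log2FC was -0.02. The florigen genes *FT* and *TSF* had 41 and 3 reads in all leaf plants together and none in root, and *LFY* none in either organ, so they were not tested.

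Of 22 tested genes of leaf senescence 11 were higher in leaf and 7 higher in root (median 0.72), or 9 and 9 with total counts scaling. *NYC1*, *PPH*, *PAO* and *RCCR*, enzymes that take chlorophyll apart, were higher in leaf, with *NYC1* at 422, 397 and 385 CPM in leaf and 5.96, 7.69 and 5.50 CPM in root (log2FC 5.97 ± 0.17, FDR = 3.55e-09) and *PAO* at 106, 120.2 and 121 CPM in leaf and 4.304, 5.69 and 3.18 CPM in root. *NAP*, a NAC factor of senescence, and *GLN1.4*, a cytosolic glutamine synthetase gene, were also higher in leaf (1.301 and 1.097), the call of *GLN1.4* being lost when a plant was left out. *GLN1.1*, another cytosolic glutamine synthetase, was at 284, 328 and 327 CPM in leaf and 253, 238 and 247 CPM in root and was not called. *SAG21*, *WRKY6*, *WRKY75*, *ORE1*, *ANAC046*, *ANAC087* and *SAG113* were higher in root, with *SAG21* at 5.79, 11.2 and 12.3 CPM in leaf and 91.1, 95.7 and 67.3 CPM in root. *ANAC087*, a NAC factor that also acts in root cap cell death, was at 0.700, 0.878 and 1.42 CPM in leaf and 17.3, 19.97 and 12.1 CPM in root. The log2FC of *SAG113* was -2.21, and -1.17 without root P2. *SAG12*, the classical marker of late senescence, had no read in any of the 6 libraries.

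Salicylate defense genes were higher in leaf in 23 of 26 cases, none being higher in root (median 2.57). *PR1*, *PR2* and *PR5*, the pathogenesis-related genes that salicylate induces, had no read in root. In leaf *PR1* was at 49.0, 155 and 129 CPM, *PR2* at 276, 556 and 968 CPM and *PR5* at 126, 315 and 398 CPM, so they were at least 2523, 13638 and 6355-fold higher in leaf. Leaf P1 was the lowest plant for *PR1*, *PR2* and *PR5*, and the leaf plants differed widely for each. *ACD6*, an ankyrin protein that raises salicylate levels, was at 2731, 2370.3 and 2126 CPM in leaf and likewise at 0 in root. *WRKY70*, a regulator of the response, was at 234, 266 and 199.7 CPM in leaf and 3.72, 3.44 and 4.65 CPM in root (log2FC 5.89 ± 0.18, FDR = 4.24e-09). *ICS1*, which makes most salicylate, differed less, at 21.2, 37.5 and 36.5 CPM in leaf and 10.5, 11.8 and 10.8 CPM in root (log2FC 1.52 ± 0.22, FDR = 0.000103). The transporter gene *EDS5* was at 13.98, 18.4 and 21.5 CPM in leaf and 16.8, 16.7 and 26.0 CPM in root and was not called, and neither were *FMO1* and *ALD1* of the pipecolate branch. The leaf plants were not stated to have met a pathogen.

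Root hair genes were higher in root in 31 of 33 cases, with a median log2FC of -9.50, or -7.89 with the 16 genes at 0 in leaf set to their bound. *EXPA7*, an expansin that loosens the wall of the growing hair, was at 29.3, 15.1 and 28.1 CPM in root and had no read in leaf, at least 1606-fold higher in root. *RHD6*, *RSL2* and *RSL4*, the bHLH factors that start and extend hairs, were at 5.605, 6.97 and 6.62 CPM, 6.10, 4.33 and 5.95 CPM and 2.601, 2.80 and 4.07 CPM in root and at or near 0 in leaf. Root P2 was the lowest of the root plants for *EXPA7* and *RSL2*, though far above leaf. *LRL1*, another bHLH factor of hair growth, was at 1.58, 1.96 and 1.81 CPM in leaf and 47.0, 70.4 and 62.7 CPM in root (log2FC -5.07 ± 0.20, FDR = 1.06e-08). *CSLD3*, a cellulose synthase-like protein needed for hair tips, was at 41.3, 33.1 and 35.1 CPM in leaf and 85.3, 74.9 and 76.0 CPM in root (log2FC -1.11 ± 0.12, FDR = 1.70e-05). *PER7*, a class III peroxidase, was at 67.6, 33.3 and 36.5 CPM in root with no read in leaf. *TTG1*, a WD40 protein that also acts in leaf trichomes, was the 1 member higher in leaf, at 46.2, 44.1 and 45.3 CPM in leaf and 14.8, 21.8 and 13.1 CPM in root, and *MYB23*, which is shared between trichomes and root epidermis, was at 2.01, 2.62 and 1.98 CPM in leaf and 0.807, 2.17 and 1.61 CPM in root and was not called. *GL2*, the homeobox gene that acts in trichomes and in hairless root cells, was at 1.83, 1.48 and 1.73 CPM in leaf and 10.7, 7.73 and 5.41 CPM in root, with root above leaf in every plant.

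Root hair genes are known in Arabidopsis to share a promoter element bound by RHD6-type bHLH factors. Its core was searched as TG, then 3 or 4 bases of any kind, then GCACG or TCACG, on both strands. It occurred in the 250 bases before the start in 4.12% of all 27437 promoters, in 11 of the 33 root hair genes, in 5.78% of genes at least 8-fold higher in root and in 3.81% of those at least 8-fold higher in leaf. The promoters of 2 genes with 2 matches each are shown as above, with the matches in capitals, chosen because the letters occur in them. In *EXPA7* (chr1:4276255-4276504, plus strand) the matches begin 246 and 74 bases before the start, and in *LRX1* (chr1:4069742-4069991, plus strand) they begin 247 and 91 bases before it, on the opposite strand.
EXPA7: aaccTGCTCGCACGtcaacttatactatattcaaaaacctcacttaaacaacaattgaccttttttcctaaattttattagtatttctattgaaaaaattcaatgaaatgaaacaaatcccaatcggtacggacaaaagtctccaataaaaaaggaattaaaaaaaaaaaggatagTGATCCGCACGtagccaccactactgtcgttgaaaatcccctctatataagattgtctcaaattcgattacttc
LRX1: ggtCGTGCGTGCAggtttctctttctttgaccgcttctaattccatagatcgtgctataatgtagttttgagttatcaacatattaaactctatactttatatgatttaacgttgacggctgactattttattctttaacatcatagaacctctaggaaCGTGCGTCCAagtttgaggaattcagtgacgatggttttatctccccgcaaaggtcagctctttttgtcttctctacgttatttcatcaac
*LRX1*, an extensin-like wall protein of root hairs, was at 18.4, 12.2 and 13.0 CPM in root and had no read in leaf, at least 967-fold higher in root.

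The Casparian strip, the lignin seal of the endodermis, had 18 of 20 genes higher in root and a median of -11.28, or -10.17 with bounds. *UCC2*, a uclacyanin of the strip, was at 0.512, 0.670 and 0.208 CPM in leaf and 776, 686 and 427 CPM in root (log2FC -10.39 ± 0.42, FDR = 1.32e-08). *CASP1*, which builds the membrane domain under the strip, was at 0, 0.0479 and 0 CPM in leaf and 146, 84.2 and 101 CPM in root. *ESB1*, a dirigent protein that localises its lignin, was at 3.25, 4.34 and 3.44 CPM in leaf and 243, 138 and 162 CPM in root. *CIF2*, a peptide that signals for closure of the strip, was at 0.700, 0.447 and 0.272 CPM in leaf and 108, 151 and 134 CPM in root. *MYB36*, the factor that switches these genes on, was at 9.86, 13.6 and 10.6 CPM in root and at 0 in leaf. Root P1 was the highest root plant for *UCC2* and *CASP1*. *LOTR1*, which positions the strip, was the 1 member higher in leaf (log2FC 0.75 ± 0.20, FDR = 0.00711), a call lost with total counts scaling (0.22) and upper quartile scaling (0.39), and *TPST*, which activates the signalling peptides of the strip and many others, was not called (-0.32). Suberin genes were higher in root in 21 of 22 cases (median -7.72). *GELP51*, a GDSL lipase that joins or cuts suberin chains, was at 0.0808, 0 and 0.0160 CPM in leaf and 96.0, 79.99 and 148 CPM in root. *CYP86A1*, the hydroxylase of suberin fatty acids, was at 0.108, 0.0638 and 0.0960 CPM in leaf and 83.5, 64.8 and 108 CPM in root (log2FC -9.84 ± 0.30, FDR = 3.94e-09). *PER49* and *GELP38*, a peroxidase and another GDSL lipase of the list, were at 122, 88.7 and 100.3 CPM and 87.7, 64.6 and 109 CPM in root and under 1 CPM in every leaf plant. *KCS20*, a fatty acid elongase that also makes leaf wax, was at 90.9, 95.2 and 88.0 CPM in leaf and 74.3, 72.6 and 71.2 CPM in root and was not called.

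In the root meristem and cap 25 of 29 tested genes were higher in root (median -7.72, or -6.43 with 12 genes at 0 in leaf set to their bound). *PLT1*, a master regulator of the root stem cell niche, was at 10.4, 11.3 and 16.7 CPM in root and *SMB*, a NAC factor of the root cap, at 10.4, 10.11 and 7.92 CPM, both with no read in leaf. *RGFR2*, a receptor of root meristem growth factor peptides, was at 0.0135, 0.0319 and 0 CPM in leaf and 57.3, 50.3 and 49.7 CPM in root, whereas its sister *RGFR1* was at 57.5, 44.9 and 36.7 CPM in leaf and 51.5, 42.8 and 51.9 CPM in root, with overlapping plants. *SCR*, which specifies the endodermis and also the bundle sheath of leaves, was at 30.5, 31.9 and 33.2 CPM in leaf and 21.4, 25.0 and 22.9 CPM in root. *LHW*, a vascular bHLH factor, was at 60.5, 55.1 and 69.6 CPM in leaf and 68.3, 70.1 and 64.7 CPM in root. *SCR* and *LHW* were not called. *ACR4*, a receptor kinase of epidermis and root stem cells, was higher in leaf (log2FC 0.89 ± 0.18, FDR = 0.00117), a call lost with total counts scaling (0.36), with the length trend removed (0.26) and in the fit of the 9 WT libraries.

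All 7 tested genes of thalianol, marneral and baruol synthesis, whose triterpenes are made in roots, were higher in root (median -12.39, or -11.29 with bounds). *THAS*, the thalianol synthase, was at 0, 0 and 0.0800 CPM in leaf and 152, 97.1 and 201 CPM in root. *THAH*, the next enzyme, was at 0, 0.0319 and 0.0480 CPM in leaf and 170.3, 106 and 188 CPM in root, and *THAD* at 163, 97.5 and 146 CPM in root with no read in leaf. *CYP71A16* of the marneral cluster was at 36.5, 31.3 and 44.8 CPM in root and also at 0 in leaf. Root P2 was the lowest root plant for *THAS*, *THAH* and *THAD*.

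Of 26 tested genes of nitrate and ammonium uptake and assimilation, 8 were higher in leaf and 11 higher in root, with a median of -0.08. These became 6 and 14 with total counts scaling, and 7 and 14 with a median of -0.88 when the length trend was removed. The ammonium transporter *AMT1;3*, higher in root, was at 0.0269, 0.0479 and 0.128 CPM in leaf and 117, 73.1 and 83.5 CPM in root (log2FC -10.39 ± 0.36, FDR = 5.46e-09, and -11.15 without leaf P3), and *NPF7.3*, which loads nitrate into the xylem, at 8.76, 9.42 and 11.2 CPM in leaf and 731, 754 and 536 CPM in root (log2FC -6.10 ± 0.20, FDR = 5.08e-09). *NRT2.1*, the main high-affinity nitrate transporter, was at 0.660, 0.367 and 1.06 CPM in leaf and 25.8, 7.01 and 20.17 CPM in root. *AMT1;1*, in contrast to *AMT1;2* (-6.04) and *AMT1;3*, was at 179.5, 161 and 133 CPM in leaf and 185, 127 and 155 CPM in root with overlapping plants. *GLN2*, the chloroplast glutamine synthetase, was higher in leaf, at 2237, 2370.3 and 2124 CPM in leaf and 95.6, 95.9 and 95.4 CPM in root. *GLU1*, the ferredoxin-dependent glutamate synthase, was also higher in leaf, at 1750.2, 1507 and 1707 CPM in leaf and 3.41, 3.74 and 4.07 CPM in root (log2FC 4.55 ± 0.15, FDR = 4.55e-09 for *GLN2* and 8.79 ± 0.19, FDR = 1.88e-09 for *GLU1*). *GLT1*, the NADH-dependent glutamate synthase, was at 816, 600.1 and 662 CPM in leaf and 773, 638 and 589.8 CPM in root and was not called, though with the length trend removed its log2FC was -1.24. *NIR1*, the nitrite reductase, was higher in leaf (1.096), as were the transporters *NPF1.1* (0.79) and *NRT2.7* (2.89). The phloem nitrate transporters *NPF1.2* and *NPF2.13*, which move nitrate between leaves, were higher in leaf with log2FC of 4.77 and 4.43. *NIA2*, the main nitrate reductase, had a log2FC of 0.52 that lost its call when a plant was left out, and of -0.01 with total counts scaling. *NIA1*, the other nitrate reductase, was not called (-0.18), though at -0.71 with total counts scaling it was called higher in root.

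Of 14 tested phosphate genes 3 were higher in leaf and 9 higher in root (median -1.68), or 4 and 10 (median -2.20) with the length trend removed. *PHT1;1*, an uptake transporter, was at 0.0135, 0 and 0.128 CPM in leaf and 346, 230.04 and 291 CPM in root. *PHO1*, which loads phosphate into the xylem, was at 6.59, 7.05 and 7.005 CPM in leaf and 327, 285 and 284 CPM in root, while the chloroplast transporters *PHT2;1* and *PHT4;1* were higher in leaf (2.69 and 3.81). *PHO2*, which turns these transporters over, was at 179, 132 and 190.2 CPM in leaf and 162, 148 and 132 CPM in root with overlapping plants, and its log2FC of 0.18 became -0.60 with the length trend removed. *SPX2*, a sensor protein of phosphate, was higher in leaf (0.74). *IPS1*, a marker of phosphate starvation, was at 2.56, 0.595 and 0.313 CPM in root and had no read in leaf. In the sulfate and potassium list 4 of 10 tested genes were higher in leaf and 6 higher in root (median -3.16), or 1 and 6 with total counts scaling. The uptake transporter *SULTR1;2* was at 0.849, 0.654 and 2.91 CPM in leaf and 240.2, 133 and 168 CPM in root. *AKT1*, the potassium uptake channel, was at 6.90, 5.83 and 6.96 CPM in leaf and 122, 103 and 118 CPM in root, while *SULTR2;1*, which moves sulfate within the plant, was higher in leaf (0.96), as were *SULTR2;2* (1.17), the vacuolar exchanger *NHX1* (1.09) and the sodium exporter *SOS1* (0.62, and -0.07 with the length trend removed).

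**Figure D4:**
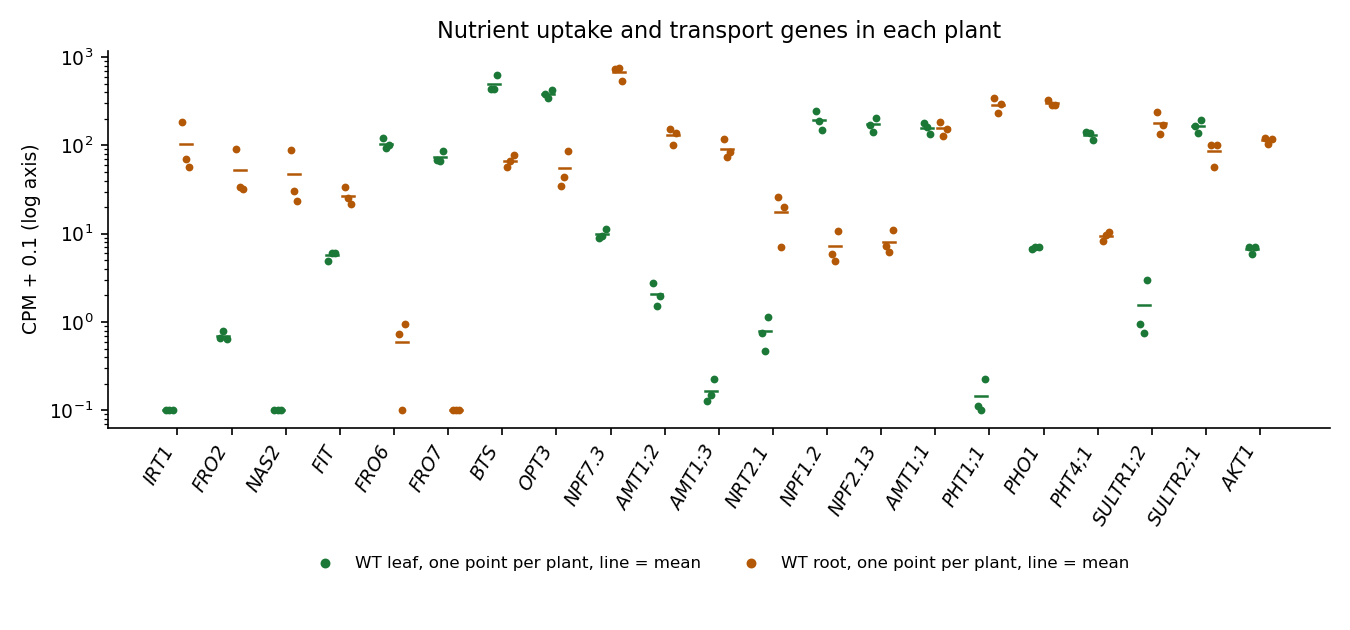
Level in each WT plant (y axis, CPM + 0.1, log scale) for 3 leaf and 3 root plants, 1 point a plant with a line at the mean, of genes of nitrate, phosphate, sulfate, potassium and iron nutrition. Uptake genes such as *AMT1;3*, *PHT1;1*, *SULTR1;2* and *IRT1* are higher in every root plant, *NPF1.2*, *FRO6* and *BTS* in every leaf plant, and the organs overlap for *AMT1;1*.

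Of 29 tested iron genes 12 were higher in leaf and 14 higher in root (median -0.53), or 9 and 15 with total counts scaling. *IRT1*, the iron importer of the root epidermis, was at 182, 69.6 and 56.6 CPM in root and had no read in leaf, at least 6829-fold higher, with root P1 above the others. *FRO2*, the root ferric reductase, was at 0.552, 0.702 and 0.544 CPM in leaf and 90.8, 33.3 and 31.7 CPM in root, and *FRO6* and *FRO7*, its leaf relatives, were higher in leaf, *FRO7* at 68.8, 65.9 and 86.5 CPM with no read in root. Of the nicotianamine synthases, *NAS1* and *NAS2* were higher in root (-3.31 and at least 3164-fold) and *NAS4* was higher in leaf (2.05), as was *NAS3*, at 249 reads in the leaf plants together and 2 in the root plants (ratio of levels 42.6, counting interval 11.7 to 354). *ABCG37*, which exports coumarins that mobilise iron, was at 0.135, 0.0479 and 0.912 CPM in leaf and 232, 161 and 193 CPM in root. *AHA2*, the proton pump that acidifies the root surface, was at 453, 403 and 430.2 CPM in leaf and 1316, 877 and 1023 CPM in root (log2FC -1.32 ± 0.17, FDR = 4.77e-05). *BTS*, a ligase that restrains the iron response, was at 434, 434 and 625 CPM in leaf and 56.4, 65.9 and 78.4 CPM in root. *OPT3*, a phloem iron transporter, was at 379, 341 and 422 CPM in leaf and 35.0, 44.1 and 87.1 CPM in root, and for *BTS* and *OPT3* all leaf plants were above all root plants. *FRO3*, *FER3*, *BGLU42* and *PYE* were also higher in leaf, with log2FC of 0.65, 0.83, 1.09 and 1.43, the call of *FRO3* being lost when a plant was left out. The factor *FIT*, which turns on *IRT1* and *FRO2*, was at 4.82, 6.00 and 5.98 CPM in leaf and 33.9, 25.2 and 21.5 CPM in root and the 4 Ib bHLH factors that pair with it were split: *BHLH39* was higher in root (-1.64), *BHLH100* higher in leaf (4.05, and 4.67 without root P3), *BHLH38* higher in leaf at 0.69 with overlapping plants and a call that was lost when a plant was left out, and *BHLH101* not called (-0.22).

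Genes of the circadian clock were split into a morning and an evening list by when they are known to peak or act. All 11 evening genes were higher in leaf (median 2.58), also with total counts scaling and with the length trend removed. *TOC1*, the evening repressor, was at 319, 295 and 317 CPM in leaf and 43.4, 48.7 and 42.8 CPM in root (log2FC 2.79 ± 0.12, FDR = 2.01e-08). *GI*, a scaffold of the evening and of flowering, was at 348, 254 and 311 CPM in leaf and 50.9, 56.6 and 44.9 CPM in root. *PRR3*, a partner that stabilises TOC1, was at 142, 167 and 175 CPM in leaf and 2.29, 2.46 and 3.00 CPM in root. Leaf plants were alike and lay wholly above root plants in all 11, beside 80.8% of all tested genes without overlap in either direction. Of the 9 morning genes, 3 were higher in leaf and 5 higher in root (median -1.09). The dawn pair *CCA1* and *LHY* was at 2.128, 2.38 and 3.01 CPM in leaf and 9.01, 12.7 and 12.8 CPM in root and at 2.38, 2.33 and 3.95 CPM in leaf and 8.79, 10.9 and 11.2 CPM in root (log2FC -2.20 ± 0.24, FDR = 1.81e-05 for *CCA1* and -1.83 ± 0.27, FDR = 0.000136 for *LHY*), low in both organs but lower in leaf in every plant. *PRR7* and *LNK1*, which act later in the morning, were higher in leaf (1.84 and 1.85), as was *RVE6* (0.97), while *LNK2* was higher in root (-1.09) and *RVE4* was not called (0.24). *PRR9* was called higher in root (-1.21) with overlapping plants, and the call was lost when a plant was left out. In WT floral stem of plants 6 weeks old, whose libraries were scaled with the other WT libraries, *CCA1* was at 57.7, 69.8 and 67.5 CPM and *TOC1* at 63.4, 113 and 121 CPM, beside leaf means of 2.33 and 289 and root means of 11.6 and 45.3 CPM on the same scale. The pair *CAT2* and *CAT3* described above are also known to follow the clock. The hour at which each organ was collected was not given in the sources used here, so the organ and the hour of harvest cannot be told apart.

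**Figure D5:**
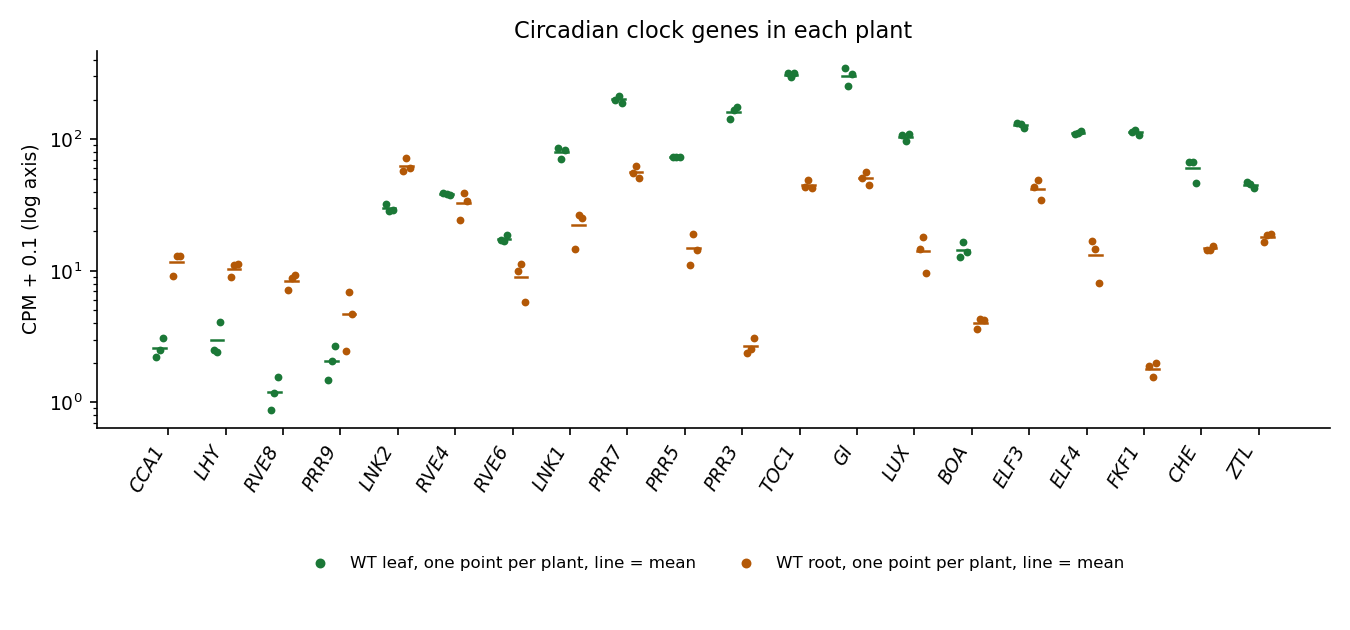
Level in each WT plant (y axis, CPM + 0.1, log scale) for 3 leaf and 3 root plants, 1 point a plant with a line at the mean, of 9 morning and 11 evening genes of the clock. Leaf points lie above root points for all 11 evening genes, and below them for *CCA1* and *LHY*.

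Many evening genes are known to carry the evening element, AAAATATCT, in their promoters. On both strands it occurred in the 250 bases before the start in 2.36% of all 27437 promoters, in 5 of the 11 evening genes and in 0 of the 9 morning genes. It was in 4.15% of genes at least 8-fold higher in leaf and 1.69% of those at least 8-fold higher in root. The promoters of *TOC1* (chr5:24674713-24674962, plus strand) and *LUX* (chr3:17182792-17183041, plus strand) are shown as above because the element occurs in them, beginning 151 bases before the start on the opposite strand in *TOC1* and 53 bases before the start in *LUX*.
TOC1: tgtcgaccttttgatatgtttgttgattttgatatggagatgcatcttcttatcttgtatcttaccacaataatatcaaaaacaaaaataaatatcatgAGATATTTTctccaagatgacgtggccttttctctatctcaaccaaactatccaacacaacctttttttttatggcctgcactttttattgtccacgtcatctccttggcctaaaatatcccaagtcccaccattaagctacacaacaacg
LUX: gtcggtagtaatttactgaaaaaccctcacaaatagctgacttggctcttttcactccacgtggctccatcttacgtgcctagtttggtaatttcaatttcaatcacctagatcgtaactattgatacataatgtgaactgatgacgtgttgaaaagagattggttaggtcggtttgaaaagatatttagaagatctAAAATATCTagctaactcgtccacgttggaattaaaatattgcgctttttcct
*LUX*, a DNA-binding member of the evening complex, was at 107, 96.3 and 109 CPM in leaf and 14.6, 17.8 and 9.57 CPM in root (log2FC 2.89 ± 0.20, FDR = 5.76e-07), though the gene overlaps another over 1507 bases and the counts of the pair may be mixed.

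Cell cycle genes were higher in root in 31 of 47 cases and higher in leaf in 7 (median -1.64). All 9 B-type cyclins, which act in mitosis, were higher in root, as were the 4 mitotic B-type kinases, the 3 Aurora kinases and *CDC20.1* and *CDC20.2*, activators of the anaphase complex. *CDC20.1* was at 8.06, 7.23 and 5.49 CPM in leaf and 66.9, 74.5 and 72.9 CPM in root (log2FC -3.37 ± 0.16, FDR = 3.79e-08) and *CYCB1;1* at 1.44, 1.26 and 0.816 CPM in leaf and 8.65, 12.4 and 8.99 CPM in root (log2FC -3.09 ± 0.30, FDR = 6.85e-06). Of genes of DNA replication, *PCNA1* was higher in root (-0.72; -0.23 and not called with the length trend removed, and not called in the fit of the 9 WT libraries) and the others were higher in leaf or not called. *MCM2*, *MCM3* and *MCM6*, parts of the replicative helicase, were higher in leaf (1.02, 1.38 and 0.69). The call of *MCM2* was lost with total counts scaling and with the length trend removed (0.48 in both), and that of *MCM6* with total counts scaling (0.16), upper quartile scaling (0.33), the length trend removed (0.23) and the 9 WT libraries. Also higher in leaf were the ribonucleotide reductase genes *TSO2*, at 125, 126 and 127 CPM in leaf and 62.4, 73.5 and 78.6 CPM in root, and *RNR2A*. *MCM5*, at 36.9, 35.7 and 30.7 CPM in leaf and 33.1, 36.2 and 32.8 CPM in root, was not called, and was higher in root under total counts scaling, at a log2FC of -0.52. *KRP1* and *SMR1*, inhibitors of cyclin-dependent kinases, were higher in leaf (2.37 and 0.79), while *KRP2*, *KRP3*, *KRP5* and *KRP6* were higher in root.

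Gene families without a preset organ were counted in the same way. Class III peroxidases, which cross-link the cell wall, were higher in root in 56 of 63 tested cases and higher in leaf in 3 (median -7.75, or -7.62 with bounds), and dirigent-like proteins, which steer lignin and lignan coupling, in 16 of 20 with 4 higher in leaf (median -7.88, or -7.08 with bounds). Plasma membrane aquaporins of the PIP type were higher in root in 9 of 12 cases (median -1.94) and vacuolar ones of the TIP type in 5 of 6 (median -2.20). MYB factors (54 of 92 higher in root, 19 in leaf) and NAC factors (37 of 61, and 12) leaned to root, whereas cysteine-rich receptor-like kinases leaned to leaf, with 23 of 34 higher there and 9 higher in root (median 5.10, or 4.96 with bounds). Cytochromes P450 had 61 genes higher in leaf and 93 higher in root of 172, UDP-glycosyltransferases 38 and 57 of 119, glutathione S-transferases 10 and 23 of 43 (13 and 21 with the length trend removed), MATE efflux proteins 14 and 22 of 46, GDSL lipases 24 and 36 of 72, WRKY factors 18 and 27 of 60, alpha-expansins 6 and 10 of 17, and AGAMOUS-like factors 7 and 10 of 23. Pentatricopeptide repeat proteins, which process organelle transcripts, had 185 of 241 genes higher in leaf and 4 higher in root (median 1.37). With total counts scaling these became 123 and 11, and with the length trend removed 161 and 6 (median 1.18).

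Some families of short or long genes depended on the length trend. Others did not: dirigent-like proteins, with a median exon length of 1039.5 bases, stayed at 4 higher in leaf and 16 higher in root. Histones, with a median exon length of 841 bases, had 2 genes higher in leaf and 24 higher in root of 42, which became 13 and 8 when the trend was removed. HSP20-like chaperones went from 5 and 17 of 28 to 7 and 11. At the long end, leucine-rich repeat kinases went from 48 and 71 of 158 to 35 and 87, and ABC transporters from 43 and 33 of 89, a median of 0.30 that total counts scaling turned to -0.23, to 30 and 41.

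Of 16 reference genes often used to normalize quantitative PCR, 3 were higher in leaf and 4 higher in root, beside 71% of all tested genes called. With total counts scaling none and 7 were, the median of 0.11 turning to -0.42. *EF1A*, an elongation factor, was at 2487, 2399 and 1990.1 CPM in leaf and 2208, 2402 and 2419 CPM in root with overlapping plants, while *UBQ10*, a polyubiquitin gene, was at 1612, 1528 and 1781 CPM in leaf and 1002, 1006 and 849.9 CPM in root (log2FC 0.78 ± 0.14, FDR = 0.000565). *ACT8*, an actin gene, was at 196, 184 and 172 CPM in leaf and 384, 540.5 and 549.7 CPM in root (log2FC -1.41 ± 0.16, FDR = 2.07e-05). *UBC21* was at 36.9, 38.05 and 35.1 CPM in leaf and 35.3, 40.9 and 31.3 CPM in root, with overlapping plants (log2FC 0.03 ± 0.13, FDR = 0.821). *PP2AA3* (0.80) and *UPL7* (0.77) were the others higher in leaf, and *GAPC1* (-1.09), *TIP41L* (-0.63) and *CBP20* (-1.43) the others higher in root. *GAPC2*, *TUB6*, *YLS8*, *MON1*, *UBC9*, *ACT2* and *ACT7* were not called, with log2FC between -0.43 and 0.47.

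The same organs were compared in Epi 8, whose 6 libraries share no plant with WT, with roots and rosette leaves under the same age and stage labels. Its leaf libraries held 48098795 to 70367330 counted reads and its root libraries 19496110 to 20041205. Reads assigned to no gene made up 0.934 to 0.947% in leaf and 4.41 to 4.84% in root. Epi 8 thus shares these differences between leaf and root libraries with WT. In Epi 8, 7200 of 21291 genes (33.8%) were higher in leaf and 8148 (38.3%) higher in root. Of the WT calls 14912 were tested in Epi 8, where 13578 (91.1%) were called in the same direction and 3 in the opposite one, and of 15128 Epi 8 calls tested in WT, 89.8% were called in the same direction. Of the WT differences of at least 8-fold, 4843 were tested in Epi 8, where 4397 were called at 8-fold or more in the same direction. In Epi 8, list medians were 7.301 for the Calvin cycle, -9.78 for root hairs, -10.74 for the Casparian strip, 2.44 for evening clock genes and -0.21 for morning clock genes, where 3 were higher in leaf and 2 higher in root. Other list medians were 0.19 for nitrate and ammonium, -0.71 for phosphate, 0.08 for the cuticle, -1.11 for iron and 1.56 for the floral transition. Their WT values were -0.08, -1.68, 0.65, -0.53 and 0.85. Medians were -6.32 for suberin, -8.76 for the root meristem and cap, -2.44 for the cell cycle, -3.91 for sulfate and potassium and 2.86 for stomata. The WT values of these lists were -7.72, -7.72, -1.64, -3.16 and 3.54. Cell cycle genes gave 5 and 34 of 47 and salicylate defense genes 24 and 0 of 26. A test of the difference between the lines, the interaction of line and organ, called 68 of 22114 genes (0.307%), a count that ran from 0 to 167 when 1 of the 12 plants was left out.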

How the data were processed

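RNA was prepared by the authors from 3 plants of each group and sequenced as TruSeq libraries. Reads were trimmed with TrimGalore, mapped to TAIR10 with STAR (2.7.3a per the submitters' processing notes), keeping unique alignments, and filtered on mapping quality with QoRTs. The deposited files hold raw counts per gene and no other unit; the strand setting was not given in the sources used here. Here the 6 WT leaf and root libraries were fitted together with edgeR 4.0.16 in R 4.3.3 (filterByExpr, TMM, glmQLFit and glmQLFTest, no covariate), with p-values adjusted over the 21488 genes tested. A gene was called at FDR under 0.05 with an absolute log2FC of at least 0.5, the limits that the study's methods name. Reads assigned to no gene or to several were left out of library sizes. Their shares were 0.717 to 5.02% and 0.254 to 0.882% of reads. The standard error of a log2FC is its size divided by the square root of F.

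Of 33977 gene identifiers in the files, 32548 matched the RefSeq annotation of TAIR10.1. A gene with no read in an organ is given a lower bound against a floor of 3 counts over the group, and intervals (95%) and floors cover counting error only. On simulated counts for 21276 genes, 74 of 100 genes changed 2-fold and 100 of 100 changed 8-fold were called, with 6 unchanged genes called. Only 200 genes were changed there, equally in both directions, whereas 71% of the genes tested here were called. The simulation therefore does not cover scaling where most genes differ, nor the length trend.

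The libraries, gene lists and families (Calvin cycle, photosystems I and II, photorespiration, chlorophyll, stomata, cuticle, leaf polarity, floral transition, senescence, salicylate defense, root hairs, Casparian strip, suberin, root meristem, thalianol, nutrient transport, clock, cell cycle, reference genes) were chosen with earlier results of these data known. Named genes are the 10 with the highest level in each direction among genes called at 8-fold without overlap, the 5 with the largest difference at 10 CPM or more, the up to 4 members of each list with the highest level, members called against the rest of their list and every reference gene. Other members named were chosen after their values were seen. A gene that the rule names is not reported here. Of the markers, 2 names matched no gene. Alternatives were other scalings (RLE, total counts, upper quartile), no filter or a 1 CPM filter, DESeq2 1.42.0, fits on 9 WT or all 27 libraries, leaf thinned to 18596963 reads, a replicate block, leaving out each plant, and, chosen after seeing the data, leaving out the 100 most abundant genes or removing the length trend. Promoters were cut from the TAIR10.1 genome as 250 bases before the annotated start. The figures were drawn with matplotlib 3.10.9. Columns of samples outside the series were not met.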

Additional observations from a re-analysis of the deposited data

Results flagged for a closer look

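The leaf to root difference itself differed between WT and Epi 8 for 68 of 22114 genes (0.307%), by edgeR's test of the interaction of line and organ at FDR under 0.05 with a log2 size of at least 0.5. At an unadjusted p under 0.05 the same test had 3262 genes, the smallest FDR was 0.0201, and DESeq2 called 791. The count rested on single plants: it ran from 0 to 167 when 1 of the 12 plants was left out, with 15 genes without WT leaf P1, 0 without WT leaf P2, 167 without WT leaf P3, 12 without WT root P1, 0 without WT root P3, 1 and 7 without Epi 8 leaf P1 and P2, and 0 and 4 without Epi 8 root P2 and P3. The counts without WT root P2, Epi 8 leaf P3 or Epi 8 root P1 lay within the same range and are not listed. *PME61*, a pectin methylesterase gene, was at 14.6, 16.8 and 13.6 CPM in WT leaf with no read in WT root, and had means of 13.2 CPM in leaf and 0.495 CPM in root of Epi 8. *AT4G18100*, a ribosomal protein L32e gene, had a leaf over root log2FC of -1.18 in WT and -2.26 in Epi 8, with means of 230.002 and 520.1 CPM in WT leaf and root and 133 and 639 CPM in Epi 8. *AT1G07070*, a ribosomal protein L35Ae gene, moved from -1.20 to -2.54, and *AT4G13170*, a ribosomal protein L13 gene, from -0.53 to -1.59. Among clock genes named above, *PRR3* moved from 5.97 in WT to 4.68 in Epi 8 and *LNK2* from -1.09 to -0.21.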

How the results depend on the processing

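With RLE scaling, no filter, a 1 CPM filter, DESeq2, 9 WT or all 27 libraries, leaf thinned to root depth or the 100 most abundant genes left out, the count higher in leaf stayed between 6515 and 7605 and that higher in root between 7251 and 8403, and leaving out 1 plant gave 7048 to 7601 and 7509 to 7952. A limit of 8-fold left 2108 and 3012. Leaf took 48.3% of the calls, 32.1% with total counts scaling and 36.7% with upper quartile scaling. Plants of the 2 organs with the same number were not stated to be related, and the correlation of their deviations was -0.01, 0.03 and -0.02, so they share only a number. With the replicate block 7290 genes were higher in leaf and 7634 higher in root. Of 548 genes followed, 14 lost and 20 gained their call when a plant was left out. Of the genes named above, the fit of 9 WT libraries ended the calls of *ACR4*, *BHLH38*, *CER4*, *FER3*, *FRO3*, *GLDP2*, *GLN1.4*, *GPAT4*, *GRF2*, *MCM6*, *NAP*, *NIA2*, *ORE1*, *PCNA1*, *SULTR2;1* and *TOE1*. Total counts scaling shifted log2FC by about -0.53, so values from 0 to that size changed sign, called or not, and among followed genes called in either fit these were *TOE1* (-0.0166), *AMT1;1* (-0.51), *NIA2* (-0.013) and *MCM5* (-0.52). With the length trend removed, of genes called in either fit, it changed sign for *GLDP2* (-0.20), *LTPG2* (0.64), *MAF1* (-0.14), *NIA2* (-0.0234), *GLT1* (-1.24), *PHO2* (-0.60) and *SOS1* (-0.0693). The interaction count of 68 became 791 with DESeq2 and 0 to 167 when a plant was left out, and the cause was not tested. Depth limits root: a gene under 0.127 to 0.135 CPM there cannot be told from one at 0, against 0.0404 to 0.0480 CPM in leaf.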
